A study of Rattus norvegicus with 9 samples.

Results

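The genes described here are 9 members of a list of neuronal pentraxins and late activity-induced effectors. They were measured by RNA sequencing in the medial prefrontal cortex (mPFC) of rats. Not every member is known for induction by activity, and Nptx1 is made more steadily. The list was chosen by the rise of one of its genes, Nptx2, in the PHL + CMS libraries relative to the Veh + CMS libraries. The other members, Nptx1, Nptxr, Vgf, Scg2, Homer1, Ptgs2, Inhba and Nrn1, are relatives of Nptx2 or products of the same kind of neuronal response. All 9 were found among the 34463 genes of the table. PHL is phloretin, a dihydrochalcone of apples, and CMS is chronic mild stress.

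The tissue came from male Sprague-Dawley rats, and each of 3 groups has 3 libraries. The PHL + CMS group (labelled CMS+PHL) received PHL and CMS, and the paper's methods give 3 weeks of varied stressors such as restraint, cold swimming and food deprivation. A dose of 20 mg/kg and 2 weeks of pre-treatment with PHL were the settings selected for the work in vivo. In the paper's dosing scheme PHL was also given during the 3 weeks of CMS. The Veh + CMS group (labelled CMS) received vehicle, carboxymethylcellulose sodium, with the same CMS. The Veh group (labelled Vehicle) received vehicle and stayed in its home cages, left alone apart from necessary procedures such as cleaning and handling. The methods place behavioural tests after stress or PHL treatment. Whether the sequenced rats took them before tissue was collected is not stated in the methods read. No group of these libraries received PHL without CMS, and no age of the rats is stated in the labels or methods read. Libraries are numbered within a group, but no label says that each came from its own animal, so p-values measure only the spread between these samples, which may be technical in part.

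Neuronal activity turns on genes in waves. Immediate early genes such as Fos and Egr1 encode mostly transcription factors and rise first, and late-response genes follow and encode proteins that act at the synapse, many of them secreted. Nptx1 and Nptx2 encode secreted pentraxins that bind AMPA-type glutamate receptors at excitatory synapses, and Nptxr encodes their membrane-anchored relative, with which they form mixed complexes. Vgf and Scg2 encode cargo of dense-core granules that is cut into neuropeptides. Homer1 encodes a postsynaptic scaffold with a short, activity-induced form, Ptgs2 the cyclooxygenase that makes prostaglandins on demand, Inhba the activin A subunit and Nrn1 a membrane-anchored ligand that promotes neurite growth and synapse maturation.

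Levels are given in FPKM, fragments scaled to gene length and library size, so that genes of different length can be compared. The reads behind them could be recovered as whole numbers, and the libraries held 13913639 to 16960004 reads on genes. A member had between 88 reads (Inhba in Veh + CMS replicate 2) and 28557 reads (Nptxr in PHL + CMS replicate 1) in a library, so counting error weighs most on Inhba. All 9 members passed the filter of a mean of at least 0.5 FPKM, which 16159 genes of the table passed. Changes are log2 fold changes with standard errors (SE) from limma on log2(FPKM + 0.1), and the Benjamini-Hochberg adjustment of p-values ran over those genes, with a threshold of 0.05. The difference between PHL + CMS and Veh + CMS is given as a description with no p-value, because it chose the list. Since the other comparisons share libraries with it, Nptx2 has no p-value in any of them. An exact permutation test of 3 libraries against 3 cannot give a p below 0.1.

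In the PHL + CMS group all 9 members had higher mean RNA levels than in the Veh + CMS group, with a median log2 fold change of 0.51 and a range of 0.21 to 0.76, although Nrn1 was below 0 when libraries were scaled by excitatory neuron markers. Over all genes tested the median was 0.01. The PHL + CMS and Veh + CMS libraries did not overlap for 6 members, which were Nptx1, Nptx2, Nptxr, Scg2, Homer1 and Ptgs2. For Nptx2 this follows from the choice of the list, and 5 members remain without it. Among all genes tested 10.5% had PHL + CMS libraries above every Veh + CMS library, and 0 genes (0%) passed the adjusted threshold in either direction (limma, 2542 genes at an unadjusted p under 0.05, and 0 genes with voom on the recovered reads). Without PHL + CMS replicate 2 that count was 285 genes.

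Relative to the Veh group, the Veh + CMS group had lower mean levels of all 9 members, with a median log2 fold change of -0.50 against -0.02 over all genes tested. For Nptx1 the difference was close to 0, and its sign turned in 6 of 23 alternatives. Of the 8 members tested, 2 were called lower (limma, adjusted p under 0.05), Nptxr and Ptgs2. Of all genes tested 1.14% were called lower and 3.79% were called in either direction. At an unadjusted p under 0.05, 6 of the 8 were lower, against 11.3% of all genes. Of the 16159 genes tested, 3596 had such a p in either direction, and 52.5% of all genes tested were below 0. The Veh + CMS and Veh libraries did not overlap for 7 members, 6 without Nptx2, against 13.5% of all genes with Veh + CMS libraries below every Veh library. Nptx1 and Inhba were the members with overlap. Both of these comparisons use the same Veh + CMS libraries, so a low value there moves each of them, and the lower values are not independent of the choice of the list.

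The PHL + CMS and Veh groups lay close for most members. Their median log2 fold change was -0.04, with 4 members above 0 and 5 below, and it was 0.08 without Veh replicate 3. None of the 8 members tested passed the adjusted threshold (limma, 0% of all genes called). Nptx1 alone had an unadjusted p under 0.05, against 4.99% of all genes that were higher at that p, and Nptx1 alone had PHL + CMS libraries above every Veh library, against 8.77% of all genes.

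**Figure D1:**
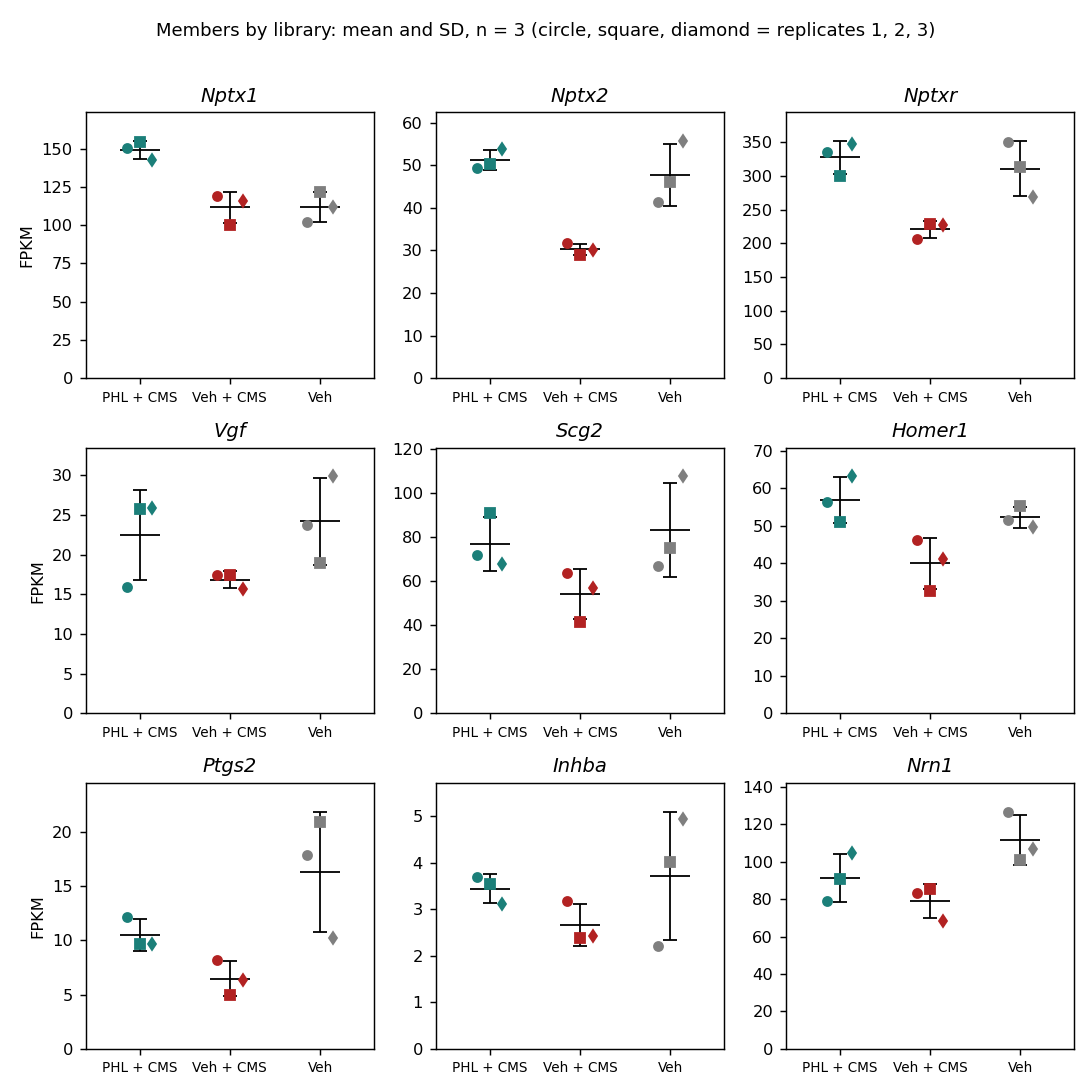
FPKM of the 9 members (y axes, each from 0) in the PHL + CMS, Veh + CMS and Veh libraries. Points are libraries and black bars the mean and SD of 3. For Nptx2 the Veh + CMS libraries sit between 28.9 and 31.7 FPKM, below all PHL + CMS and Veh libraries, whereas for Nptx1 the PHL + CMS libraries stand above both other groups.

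Nptx2, also called Narp, is the pentraxin whose transcription follows neuronal activity. It stood at 49.4, 50.3 and 53.8 FPKM in PHL + CMS replicates 1, 2 and 3, at 31.7, 28.9 and 30.1 FPKM in the Veh + CMS replicates, and at 41.5, 46.2 and 55.7 FPKM in the Veh replicates. Every Veh + CMS library lay below every other library, and the PHL + CMS values fell within the range of the Veh values. The means were 51.2 ± 2.34 FPKM in the PHL + CMS group, 30.2 ± 1.39 FPKM in the Veh + CMS group and 47.8 ± 7.26 FPKM in the Veh group (SD, n = 3 each). The log2 fold change was 0.76 (SE 0.11) between PHL + CMS and Veh + CMS, which ranked 2 by p among the 8262 genes with a positive change. It was -0.65 (SE 0.11) between Veh + CMS and Veh and 0.11 (SE 0.11) between PHL + CMS and Veh. The Veh libraries spread most, with a coefficient of variation of 15.2% against 4.57% in PHL + CMS and 4.62% in Veh + CMS. Without Veh replicate 3, the highest of them, the change between Veh + CMS and Veh was -0.53.

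Nptxr, the membrane-anchored pentraxin, was the most abundant member in every group. It had 335.0, 299.9 and 346.9 FPKM in the PHL + CMS replicates, 206.3, 229.2 and 227.0 FPKM in the Veh + CMS replicates, and 350.0, 313.3 and 268.4 FPKM in the Veh replicates. As for Nptx2, all Veh + CMS libraries were below all others. The log2 fold change was 0.57 (SE 0.11) between PHL + CMS and Veh + CMS. Between Veh + CMS and Veh it was -0.48 (SE 0.11, limma adjusted p = 0.0435, exact permutation p = 0.1), and between PHL + CMS and Veh 0.08 (SE 0.11, limma adjusted p = 0.829).

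Nptx1, the pentraxin that neurons make more steadily, followed another order. Its levels were 150.5, 154.0 and 142.2 FPKM in the PHL + CMS replicates, 119.1, 100.2 and 115.8 FPKM in the Veh + CMS replicates, and 102.1, 121.3 and 112.1 FPKM in the Veh replicates. The PHL + CMS libraries were above all others, and the Veh + CMS and Veh libraries were mixed. The log2 fold change was 0.42 (SE 0.09) between PHL + CMS and Veh + CMS and likewise 0.42 (SE 0.09) between PHL + CMS and Veh. Against Veh it had an unadjusted p of 0.00131 in limma and an adjusted p of 0.235, so it did not pass over all genes, and its exact permutation p was 0.1. For Veh + CMS against Veh the log2 fold change was -0.002 (SE 0.09, 95% interval -0.21 to 0.20, limma adjusted p = 0.994), an interval that leaves room for small changes either way.

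The 3 pentraxin RNAs together reached 527 ± 20.4 FPKM in the PHL + CMS group, 363 ± 8.78 FPKM in the Veh + CMS group and 470 ± 30.1 FPKM in the Veh group (SD, n = 3 each). The sum in every Veh + CMS library was below that in every Veh library, and the sum in every PHL + CMS library was above it. Since the sum holds Nptx2, it has no p-value. Nptx1 made up 30.8% ± 2.70 of the sum in the Veh + CMS group and 23.9% ± 2.77 in the Veh group (SD, n = 3 each, no overlap). In the PHL + CMS group its share was 28.3% ± 2.17, also above every Veh library (n = 3). Nptxr made up 62.0% of the sum in PHL + CMS, 60.9% in Veh + CMS and 65.9% in Veh, with overlap between all groups. Per FPKM of Nptx1 there were 1.99 ± 0.278 FPKM of Nptxr in Veh + CMS and 2.80 ± 0.551 in Veh (n = 3 each, exact permutation p = 0.1). In PHL + CMS the ratio was 2.20 ± 0.246 and overlapped with Veh (exact permutation p = 0.2). With the ratio of Scg2 to Vgf, these made 4 exact tests, and the lowest p became 0.4 after Benjamini-Hochberg adjustment over them.

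**Figure D2:**
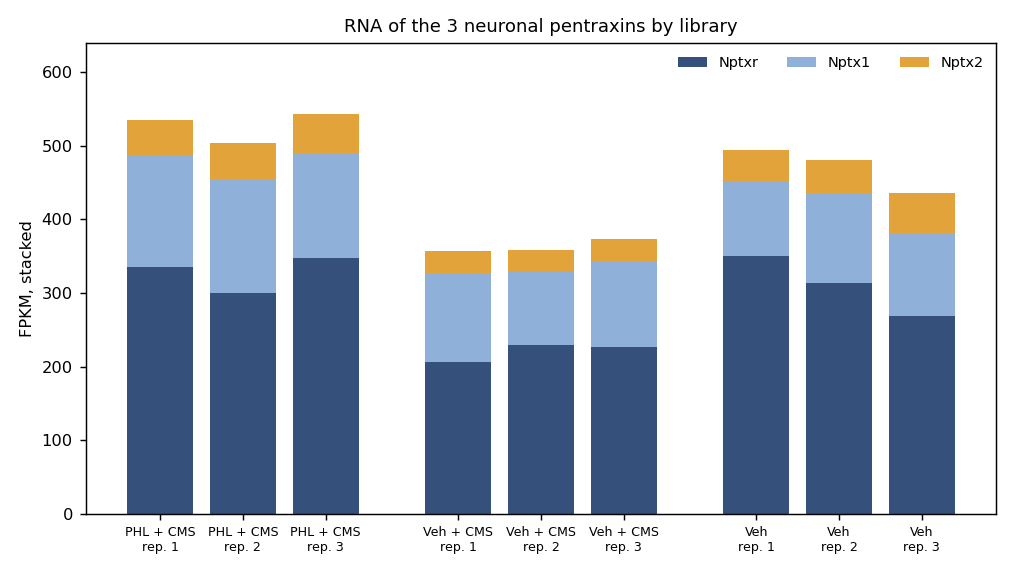
Stacked FPKM of Nptxr, Nptx1 and Nptx2 (y axis) in each of the 9 libraries, grouped as PHL + CMS, Veh + CMS and Veh. The total lies between 504 and 543 FPKM in PHL + CMS, between 357 and 373 FPKM in Veh + CMS and between 436 and 494 FPKM in Veh.

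Scg2, which encodes secretogranin II, the precursor of secretoneurin, had 72.1, 91.1 and 67.8 FPKM in the PHL + CMS replicates, 63.8, 41.7 and 57.0 FPKM in the Veh + CMS replicates, and 67.1, 75.2 and 107.7 FPKM in the Veh replicates. The Veh + CMS libraries were lowest, though the gap between the nearest PHL + CMS, Veh + CMS and Veh libraries was small. The log2 fold change was 0.52 (SE 0.21) between PHL + CMS and Veh + CMS, -0.61 (SE 0.21, limma adjusted p = 0.131) between Veh + CMS and Veh and -0.10 (SE 0.21, limma adjusted p = 0.905) between PHL + CMS and Veh. Without Veh replicate 3, the highest library, the change between Veh + CMS and Veh was -0.41.

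Vgf encodes a neurotrophin-induced precursor whose peptides act at synapses. It had 15.9, 25.7 and 25.9 FPKM in the PHL + CMS replicates, 17.5, 17.4 and 15.7 FPKM in the Veh + CMS replicates, and 23.7, 19.0 and 29.9 FPKM in the Veh replicates. Here PHL + CMS replicate 1 lay among the Veh + CMS libraries, and the other PHL + CMS libraries lay with the Veh libraries. Its log2 fold change was 0.38 (SE 0.21) between PHL + CMS and Veh + CMS. It was 0.61 without PHL + CMS replicate 1, 0.27 without replicate 2 and 0.26 without replicate 3. For Veh + CMS against Veh it was -0.50 (SE 0.21, limma adjusted p = 0.205, no overlap), and between PHL + CMS and Veh -0.12 (SE 0.21, limma adjusted p = 0.885). The ratio of Scg2 to Vgf FPKM was 3.56 ± 0.952 in PHL + CMS, 3.23 ± 0.723 in Veh + CMS and 3.47 ± 0.578 in Veh, and the groups overlapped (exact permutation p = 0.7 for Veh + CMS and 1 for PHL + CMS, each against Veh).

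Homer1 was counted as a whole gene, so the long constitutive forms and the short activity-induced form are not separated. It had 56.2, 51.0 and 63.1 FPKM in the PHL + CMS replicates, 46.1, 32.7 and 41.2 FPKM in the Veh + CMS replicates, and 51.5, 55.3 and 49.8 FPKM in the Veh replicates. All Veh + CMS libraries were below all others. On the log2 scale the change was 0.51 (SE 0.13) between PHL + CMS and Veh + CMS, -0.40 (SE 0.13, limma adjusted p = 0.117) between Veh + CMS and Veh and 0.12 (SE 0.13, limma adjusted p = 0.784) between PHL + CMS and Veh.

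Ptgs2, which in cortex is made mostly by excitatory neurons, was the member with the lowest fold change between Veh + CMS and Veh. It had 12.2, 9.67 and 9.66 FPKM in the PHL + CMS replicates, 8.16, 4.96 and 6.34 FPKM in the Veh + CMS replicates, and 17.9, 21.0 and 10.2 FPKM in the Veh replicates. The Veh + CMS libraries were below all others, and the PHL + CMS libraries overlapped only with Veh replicate 3. In limma the log2 fold change was 0.71 (SE 0.27) between PHL + CMS and Veh + CMS. Between Veh + CMS and Veh it was -1.28 (SE 0.27, limma adjusted p = 0.0397, exact permutation p = 0.1), a ratio of 0.41. Between PHL + CMS and Veh it was -0.58 (SE 0.27, 95% interval -1.19 to 0.03, limma adjusted p = 0.483), -0.88 without Veh replicate 3 and -0.37 without Veh replicate 2.

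Nrn1, also called neuritin or CPG15, had 79.2, 90.7 and 104.8 FPKM in the PHL + CMS replicates, 83.5, 85.2 and 68.6 FPKM in the Veh + CMS replicates, and 126.9, 101.2 and 106.9 FPKM in the Veh replicates. The Veh + CMS libraries were below all Veh libraries, and the PHL + CMS libraries overlapped with both groups. Expressed as a log2 fold change, the difference was 0.21 (SE 0.13) between PHL + CMS and Veh + CMS, the smallest of the 9 members. Between Veh + CMS and Veh it was -0.50 (SE 0.13, limma adjusted p = 0.0709), and between PHL + CMS and Veh -0.29 (SE 0.13, limma adjusted p = 0.477).

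Inhba, the least abundant member, had 3.70, 3.53 and 3.10 FPKM in the PHL + CMS replicates, 3.18, 2.38 and 2.43 FPKM in the Veh + CMS replicates, and 2.22, 4.01 and 4.93 FPKM in the Veh replicates. Its Veh libraries spanned more than the other groups together. The change on the log2 scale was 0.37 (SE 0.27) between PHL + CMS and Veh + CMS, -0.41 (SE 0.27, limma adjusted p = 0.414) between Veh + CMS and Veh and -0.04 (SE 0.27, limma adjusted p = 0.975) between PHL + CMS and Veh.

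**Figure D3:**
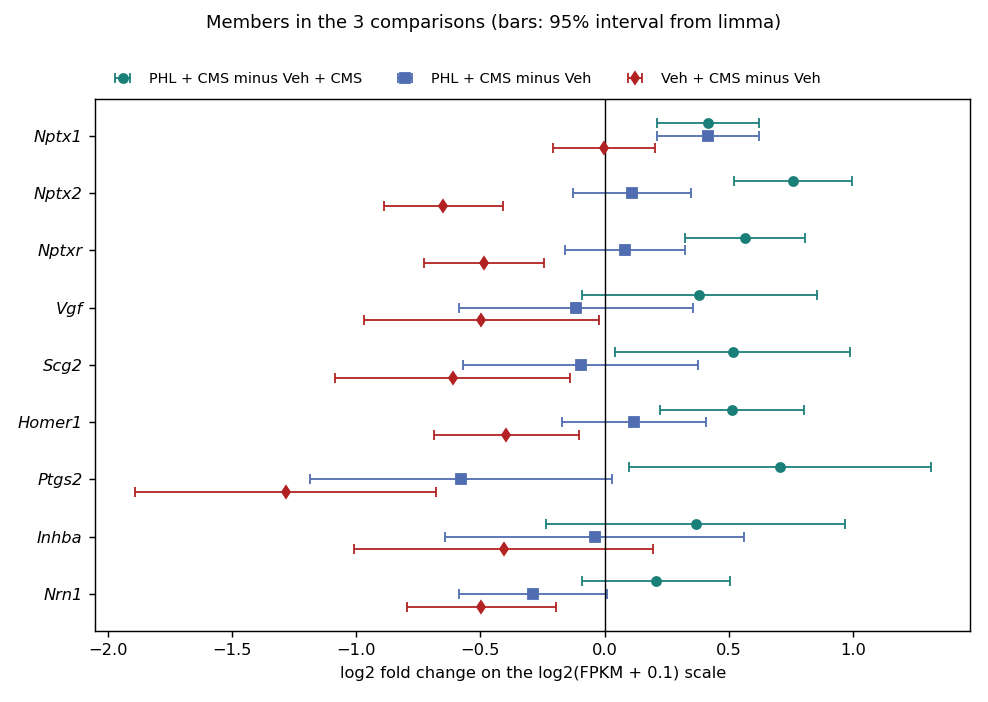
Log2 fold changes of the 9 members (x axis, log2(FPKM + 0.1) scale) with 95% intervals from limma in PHL + CMS minus Veh + CMS, PHL + CMS minus Veh and Veh + CMS minus Veh, which share libraries. The first lies at or above 0.21 and the last at or below 0 for every member (Nrn1 in the first turned sign under excitatory marker scaling, and Nptx1 in the last, at -0.002, in 6 of 23 alternatives), and PHL + CMS minus Veh lies near 0 except for Nptx1 at 0.42, Ptgs2 at -0.58 and Nrn1 at -0.29.

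The calls of Nptxr and Ptgs2 between Veh + CMS and Veh depended on single libraries and on the settings of the test. Leaving out Veh replicate 1 or 2, any Veh + CMS replicate, or PHL + CMS replicate 1 or 3 ended both calls, with a limma adjusted p of 0.0605 to 0.152 for Nptxr and 0.0574 to 0.140 for Ptgs2 and log2 fold changes of -0.39 to -0.51 for Nptxr and -1.07 to -1.46 for Ptgs2. Without Veh replicate 3, which stood apart in its group, both remained called (limma adjusted p = 0.0408 each, log2 fold changes of -0.59 for Nptxr and -1.59 for Ptgs2). Both also remained called without PHL + CMS replicate 2 (limma adjusted p of 0.0414 for Nptxr and 0.0439 for Ptgs2). With all libraries, the limma adjusted p of Nptxr was 0.0707 with no filter, 0.0805 without the variance trend, 0.0741 with only the groups compared and 0.0963 with a replicate block. That of Ptgs2 was 0.0598, 0.0744, 0.0724 and 0.0611 under these settings in the same order. Quantile normalization ended the call of Nptxr but not that of Ptgs2 (limma adjusted p = 0.0767).

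By level, Nptxr, Nptx1, Nrn1, Scg2, Homer1, Nptx2, Vgf, Ptgs2 and Inhba stood in this order in all 3 groups, on the FPKM scale. Neighbours were not separated beyond the spread of their libraries for Nrn1 and Scg2 and for Homer1 and Nptx2 in the PHL + CMS group, or for Scg2 and Homer1 in the Veh + CMS group. In the Veh group this held for Nptx1 and Nrn1, Nrn1 and Scg2, Homer1 and Nptx2, and Vgf and Ptgs2. In Rnor_6.0, Nptx2 (ENSRNOG00000001006) lies on chromosome 12 from 12013911 to 12025549 on the minus strand, and Vgf (ENSRNOG00000001416) lies 10.7 Mb away on the same strand, from 22677607 to 22680630. Inhba and Nrn1 lie 23.9 Mb apart on chromosome 17. Nptxr (ENSRNOG00000016156) is on chromosome 7 from 121011680 to 121029754, and Ptgs2 (ENSRNOG00000002525) on chromosome 13 from 67351087 to 67359335. Nothing states that strand was used in counting, and without it reads of an overlapping antisense gene would be counted with a member.

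Activity-induced genes are often regulated through short promoter motifs, of which the cAMP response element (CRE), bound by CREB, is the best known for the granule cargo. Promoters of 6 members were matched by symbol in RefSeq (GRCr8), those of Nptx2, Vgf, Scg2, Homer1, Ptgs2 and Inhba, and the 250 bases before each start were searched. Those of Nptx1, Nptxr and Nrn1 were not matched. The windows below run from 150 to 31 bases before the start, 5′ to 3′ on the strand of the gene, and are shown because Vgf and Scg2 share a whole CRE, Nptx2 holds its half-site at the same distance as Vgf, and Ptgs2 holds none. Capitals mark the motif matches.
Nptx2 (chr12:15162076-15162195, minus strand): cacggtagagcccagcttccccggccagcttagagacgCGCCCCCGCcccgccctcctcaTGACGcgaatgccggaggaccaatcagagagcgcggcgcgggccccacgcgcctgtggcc
Vgf (chr12:25277051-25277170, minus strand): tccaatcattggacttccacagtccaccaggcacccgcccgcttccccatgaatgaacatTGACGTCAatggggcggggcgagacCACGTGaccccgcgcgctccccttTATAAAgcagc
Scg2 (chr9:88256897-88257016, minus strand): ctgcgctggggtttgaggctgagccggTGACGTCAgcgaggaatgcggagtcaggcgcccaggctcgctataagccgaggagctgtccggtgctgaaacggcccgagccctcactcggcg
Ptgs2 (chr13:64713913-64714032, plus strand): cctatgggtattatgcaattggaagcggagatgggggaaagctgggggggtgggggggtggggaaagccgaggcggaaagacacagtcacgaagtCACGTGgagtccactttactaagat

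The whole CRE, TGACGTCA, its own reverse complement, was found from 90 to 83 bases before the start of Vgf and from 123 to 116 bases before that of Scg2. It is held by 1.59% of the 33469 promoters of the table. The half-site TGACG, which lies within every whole CRE and was searched on both strands, also stood from 90 to 86 bases before the start of Nptx2, and 18.2% of promoters hold it. Nptx2 further held the EGR motif GCGGGGGCG on the opposite strand, from 112 to 104 bases before the start, as 2.45% of promoters do on either strand. The E-box CACGTG, found in 5.59% of promoters, stood in Vgf and Ptgs2, and TATAAA on the strand of the gene, found in 8.06%, in Vgf and Inhba. AP-1 motifs (TGACTCA or TGAGTCA, 4.05% of promoters) and the CArG box (1.5%) were in 0 of the 6 windows. These are matches of letters and say nothing of which factor is bound.

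RNA levels were also measured for genes whose products work with the pentraxins and AMPA receptors. Of 10 genes tested between Veh + CMS and Veh, 9 had log2 fold changes below 0 (median -0.30), 1 was called lower and 1 higher (limma). Among all genes tested 52.5% were below 0 and 3.79% were called in either direction. Cacng3, which encodes an AMPA receptor auxiliary subunit, was at 38.0 ± 1.60 FPKM in Veh + CMS and 52.1 ± 5.77 FPKM in Veh (SD, n = 3 each), with a log2 difference of -0.45 (SE 0.10, limma adjusted p = 0.0440). Adam17, a protease that sheds membrane proteins and is known to cleave Nptxr in rodent neurons, was at 9.99 ± 1.19 FPKM in Veh + CMS and 6.19 ± 0.292 FPKM in Veh, with a log2 difference of 0.68 (SE 0.15, limma adjusted p = 0.0462). Between PHL + CMS and Veh + CMS the list had a median of 0.26 with 9 of 10 above 0, and the log2 fold changes were 0.27 (SE 0.10) for Cacng3 and -0.39 (SE 0.15) for Adam17.

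Of 13 genes for dense-core granule proteins, 12 were below 0 between Veh + CMS and Veh (median -0.29) and 2 were called lower, Ptprn and Chga. Among all genes tested 1.14% were called lower. Ptprn, a transmembrane protein of the granule, was at 134 ± 6.82 FPKM in Veh + CMS and 172 ± 10.6 FPKM in Veh, with a log2 difference of -0.36 (SE 0.07, limma adjusted p = 0.0345). Chga, which encodes the granin chromogranin A, was at 67.7 ± 2.17 FPKM in Veh + CMS and 88.2 ± 1.20 FPKM in Veh, with a log2 difference of -0.38 (SE 0.08, limma adjusted p = 0.0404). The list median between PHL + CMS and Veh + CMS was 0.27 with 12 of 13 above 0. Scg2 and Vgf, at -0.61 and -0.50, had lower fold changes than either called gene, with larger SEs.

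The lists around Homer1, Ptgs2 and Inhba held no called gene between Veh + CMS and Veh. Their counts at an unadjusted p under 0.05 stand beside 3596 of the 16159 genes tested, in either direction. Of 9 binding partners of Homer1 and its family, 0 were called (limma, 1 at an unadjusted p under 0.05, median -0.04). Dlgap1, a postsynaptic scaffold, stood at -0.31 (SE 0.12, limma adjusted p = 0.180), and Homer3 at 0.45 (SE 0.20, limma adjusted p = 0.235). Of 10 genes of the prostaglandin pathway besides Ptgs2, 0 were called (limma, 3 at an unadjusted p under 0.05, median -0.11). Pla2g4a, the phospholipase that frees arachidonic acid, stood at 0.88 (SE 0.25, limma adjusted p = 0.0876), opposite to Ptgs2, and Ptger3, a prostaglandin E receptor, at -0.83 (SE 0.30, limma adjusted p = 0.149). Of 14 genes of the activin pathway besides Inhba, 0 were called (limma, 2 at an unadjusted p under 0.05, median -0.05), with Smad4, the shared SMAD, at 0.38 (SE 0.11, limma adjusted p = 0.0923) and Acvr1b, an activin type I receptor, at -0.25 (SE 0.09, limma adjusted p = 0.136).

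Other genes of the activity response were lower by mean in Veh + CMS than in Veh, and 1 passed the test. Of 9 other late-response genes, 9 were below 0 between Veh + CMS and Veh (median -0.46), 0 were called (limma) and 6 had an unadjusted p under 0.05. Bdnf, the neurotrophin, was at 9.61 ± 0.951 FPKM in PHL + CMS, 5.03 ± 2.12 FPKM in Veh + CMS and 9.87 ± 0.0872 FPKM in Veh (SD, n = 3 each), with a log2 difference of -1.06 (SE 0.28, limma adjusted p = 0.0685) between Veh + CMS and Veh. Gadd45g, which encodes a stress-response protein, stood at -0.87 (SE 0.21, limma adjusted p = 0.0578). Of 18 immediate early genes, 18 were below 0 (median -0.94), 13 had an unadjusted p under 0.05 and 1 was called lower. That gene, Dusp6, a phosphatase of ERK, stood at -0.90 (SE 0.19, limma adjusted p = 0.0419). Among all genes tested 52.5% were below 0, 11.3% were lower at an unadjusted p under 0.05 and 1.14% were called lower (limma). Library means of the immediate early list, relative to Veh, were 0.19, 0.43 and -0.63 in Veh replicates 1, 2 and 3. They were -0.60, -1.04 and -1.04 in the Veh + CMS replicates and -0.42, -0.32 and -0.49 in the PHL + CMS replicates. Veh replicate 3 thus lay below Veh + CMS replicate 1 and below every PHL + CMS library. Between PHL + CMS and Veh + CMS the medians were 0.43 for the late-response list (9 of 9 above 0) and 0.63 for the immediate early list (15 of 18 above 0). The 3 below 0 were Npas4, Btg2 and Ier2, with means of 3.57, 12.4 and 15.7 FPKM in PHL + CMS and 7.64, 19.3 and 18.9 FPKM in Veh + CMS. Arc averaged 79.1 FPKM in PHL + CMS, 76.6 FPKM in Veh + CMS and 163 FPKM in Veh, with a log2 difference of 0.09 (SE 0.39) between PHL + CMS and Veh + CMS and -1.15 (SE 0.39, limma adjusted p = 0.127) between Veh + CMS and Veh. Between PHL + CMS and Veh the medians were -0.08 and -0.33, against -0.04 for the 9 members.

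Markers of other cells and regions also differed between the groups. All 10 markers of oligodendrocytes and myelin were called higher in Veh + CMS than in Veh (limma, median log2 fold change 1.72), among them Mobp and Ermn. Of the 16159 genes tested 428 were called higher. Their summed level was 3305 to 7151 FPKM in PHL + CMS, 8396 to 11291 FPKM in Veh + CMS and 2415 to 3057 FPKM in Veh. All 7 markers of striatum, a region under the cortex, were higher by mean in Veh + CMS than in Veh (median 0.92, 0 called by limma, 3 at an unadjusted p under 0.05), Rgs9 and Adora2a first, and summed to 138 to 147 FPKM in PHL + CMS, 221 to 535 FPKM in Veh + CMS and 130 to 353 FPKM in Veh. Mitochondrial genes took a share of reads of 6.96% to 9.09% in PHL + CMS, 9.67% to 13.9% in Veh + CMS and 9.74% to 10.6% in Veh. The part of these differences in the members' values was not tested, and fewer neurons in the sample and less RNA per neuron cannot be told apart in bulk tissue.

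By median, excitatory neuron markers had lower levels in Veh + CMS than in either other group, as the members did, with smaller differences. Of 8 excitatory neuron markers listed, 7 were found and tested. Slc17a7, a vesicular glutamate transporter, had 581 ± 21.4 FPKM in PHL + CMS, 436 ± 42.2 FPKM in Veh + CMS and 578 ± 73.0 FPKM in Veh (SD, n = 3 each). The median log2 fold change of the 7 markers was 0.41 between PHL + CMS and Veh + CMS, -0.20 between Veh + CMS and Veh and 0.10 between PHL + CMS and Veh. For the members the medians were 0.51, -0.50 and -0.04. Between Veh + CMS and Veh 0 of these 7 markers were called (limma), and 1, Slc17a7, had an unadjusted p under 0.05. Of 7 inhibitory neuron markers, Sst and Vip were called lower in Veh + CMS than in Veh (limma, median of the list -0.29). Pan-neuronal markers had a median of -0.34, with 0 of 6 called (limma, 3 lower at an unadjusted p under 0.05). Beside these counts, 1.14% of all genes tested were called lower and 11.3% were lower at an unadjusted p under 0.05 (limma).

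When each library was instead scaled by its mean over these 7 excitatory markers, an alternative chosen after seeing the data, the median over all genes moved to -0.34 between PHL + CMS and Veh + CMS and to 0.25 between Veh + CMS and Veh. On that scale the members between PHL + CMS and Veh + CMS had a median of 0.17, Nptx2 stood at 0.41, Nptxr at 0.22, Nptx1 at 0.07 and Ptgs2 at 0.36, and Nrn1 was reversed at -0.14. Between Veh + CMS and Veh the median was -0.23. Nptx2 stood at -0.38, Ptgs2 at -1.02 and remained called (limma adjusted p = 0.0311), Nptxr at -0.22 and was no longer called (limma adjusted p = 0.113), and Nptx1 at 0.27 (limma adjusted p = 0.186). The size of a member's change therefore depended on whether it was read against all genes or against excitatory markers.

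Within groups, the myelin and striatum levels let single libraries be set side by side. PHL + CMS replicate 2 had a summed myelin level of 7151 FPKM, against 3422 FPKM and 3305 FPKM in PHL + CMS replicates 1 and 3. Its Nptx2, at 50.3 FPKM, lay between theirs, while its Nptxr, at 299.9 FPKM, and Homer1, at 51.0 FPKM, were the lowest of the group. Its Nptx1, at 154.0 FPKM, and Scg2, at 91.1 FPKM, were the highest of the group, and its other members lay in between. Veh replicate 3 had a summed striatum level of 353 FPKM, against 130 FPKM and 137 FPKM in Veh replicates 1 and 2. That library had the highest Nptx2, Vgf, Scg2 and Inhba of the Veh group and its lowest Nptxr, Homer1 and Ptgs2. Across the 9 members the mean of log2 values relative to the Veh group was between -0.09 and -0.01 in PHL + CMS, between -0.66 and -0.39 in Veh + CMS and between -0.08 and 0.06 in Veh.

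**Figure D4:**
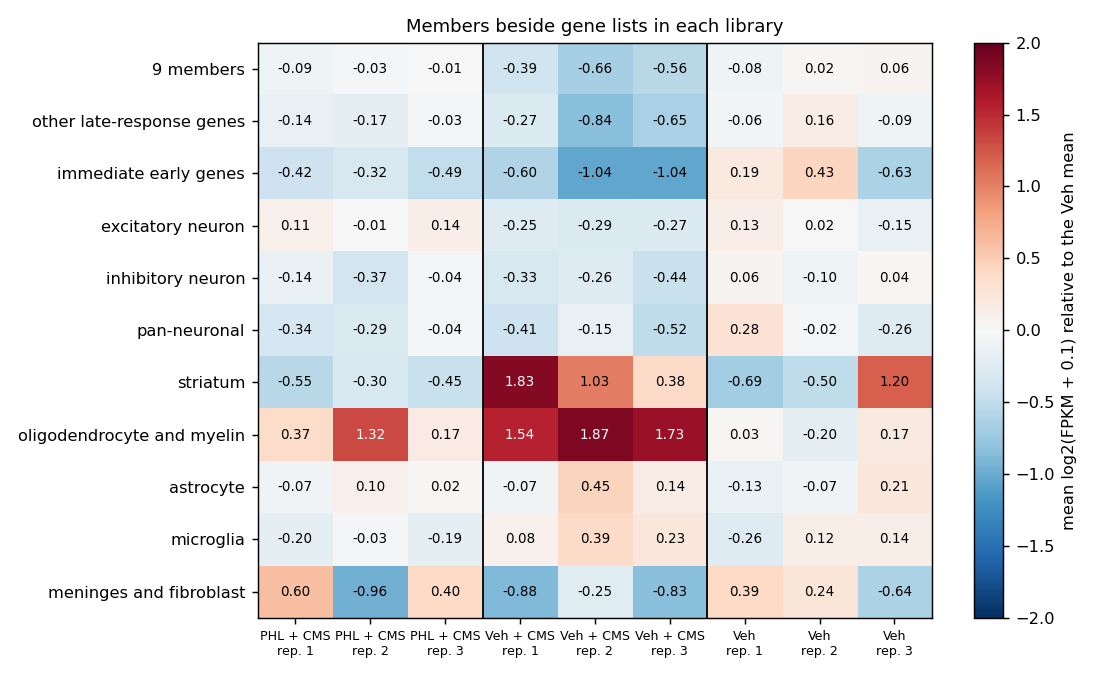
Mean log2(FPKM + 0.1) relative to the Veh mean (colour and printed value) for the 9 members and 10 gene lists (rows) in each library (columns, PHL + CMS, Veh + CMS, Veh). The members are lowest in the Veh + CMS libraries, at -0.39, -0.66 and -0.56, where the myelin list stands at 1.54, 1.87 and 1.73, and PHL + CMS replicate 2 has a myelin value of 1.32 with a member mean of -0.03. The excitatory neuron list stands at 0.11, -0.01 and 0.14 in PHL + CMS, -0.25, -0.29 and -0.27 in Veh + CMS, and 0.13, 0.02 and -0.15 in Veh.

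Likeness to Nptx2 was measured as the root mean square difference of log2 values over the 9 libraries, after each gene was centred on its own mean, among 12089 genes outside the list with a symbol and a mean of at least 1 FPKM. The spread of Nptx2 itself on this scale was 0.35. The nearest gene was Grasp, which encodes tamalin, a scaffold of metabotropic glutamate receptors, at a difference of 0.10. It had 47.7, 42.5 and 55.7 FPKM in the PHL + CMS replicates, 33.5, 27.6 and 29.8 FPKM in the Veh + CMS replicates, and 38.9, 48.7 and 50.7 FPKM in the Veh replicates. Its values were thus lowest in the same 3 libraries, and its level was close to that of Nptx2 as well. Rps6kl1, a kinase-like gene, followed at 0.15, and Efnb1, which encodes ephrin-B1, Lingo1, a co-receptor of the Nogo receptor, and Rtn4rl2, a relative of the Nogo receptor, each at 0.16. Among the members the nearest was Homer1 at 0.20, then Scg2 at 0.21 and Nptxr at 0.23, and the farthest was Ptgs2 at 0.50. Genes chosen for likeness over these libraries carry no test.

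**Figure D5:**
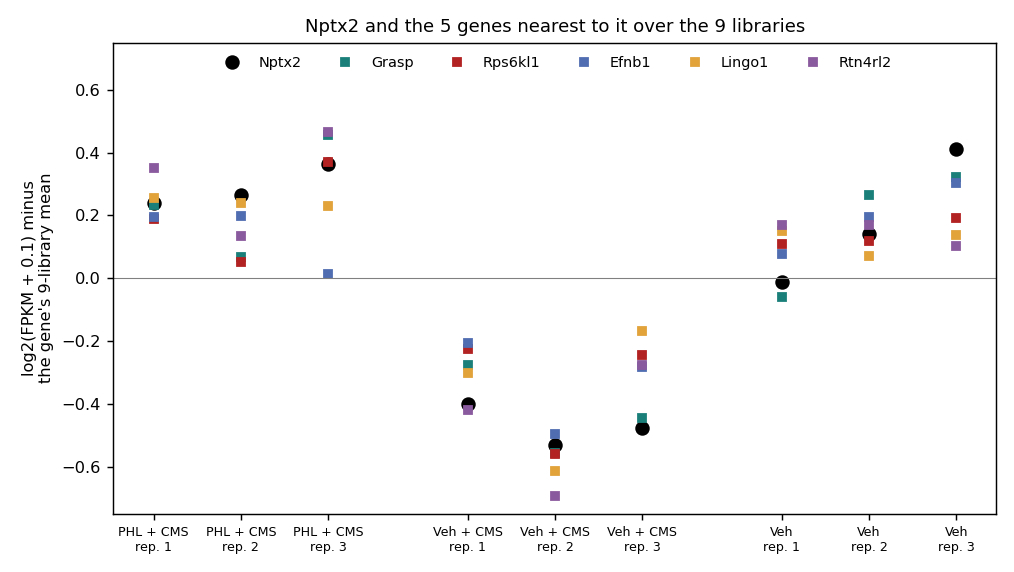
Log2(FPKM + 0.1) minus each gene's mean over the 9 libraries (y axis) for Nptx2 (black circles) and the 5 nearest genes (squares) in the PHL + CMS, Veh + CMS and Veh libraries. All 6 genes lie below 0 in the 3 Veh + CMS libraries, where Nptx2 stands at -0.40, -0.53 and -0.48.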

How the data were processed

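RNA of mPFC tissue was compared between the PHL + CMS, Veh + CMS and Veh groups, 3 libraries each. The authors deposited 1 table of FPKM for 34463 Ensembl genes. The submitters' notes name HISAT2, an aligner, and the build Rnor_6.0, and each library took 1 µg of RNA. Which tools counted reads and gave FPKM, with which versions and annotation, is not given in the sources used here. FPKM times gene length gave whole reads to within 1e-06. Deposited values were within 0.794% of median-of-ratios scaling, so none was added.

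Genes with a mean of at least 0.5 FPKM (16159) were fitted on log2(FPKM + 0.1) in limma 3.58.1 (R 4.3.3) with a variance trend and all 3 groups (9.04 residual degrees of freedom with the prior), Benjamini-Hochberg adjusted. Tests were two-sided. The members and lists were chosen with earlier results of these data known. Named were all members, up to 4 genes of other lists and up to 2 of marker lists by smallest p between Veh + CMS and Veh, and the 5 genes nearest in profile to Nptx2 and to the member mean, placeholder symbols left out. Outside this rule, Npas4, Btg2, Ier2 and Arc were named for their change between PHL + CMS and Veh + CMS, and Cldn5 for its level of 0. Of the lists, 11 genes were not tested, 6 of them for low values. Alternatives numbered 23. The fit was also run on simulated data, where the planted changes were larger than those of most members, so smaller changes were not covered.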

Additional observations from a re-analysis of the deposited data

How the results depend on the processing

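Between Veh + CMS and Veh, 613 genes and 2 of 8 members were called. Genes and members called were 301 and 0 with no filter, 2 and 0 without the variance trend, 0 and 0 with a replicate block, and 1429 and 1 with excitatory marker scaling. With library weights 1315 genes were called, with quantile normalization 1 member (Ptgs2, not Nptxr), and with only the groups compared 0 members. With 1 library left out, 0 to 798 genes and 0 to 2 members were called. Between PHL + CMS and Veh + CMS, where 0 genes were called, 6 were called with no filter, 1 without the trend, 3208 with excitatory marker scaling (11 higher, 3197 lower) and 0 to 285 with 1 library left out. Between PHL + CMS and Veh, 4 genes were called with no filter and 0 to 1 with 1 library left out, and 0 of 8 members under any alternative run. The member median there, -0.04, turned to 0.010 with voom and lay between -0.12 and 0.084 with 1 library left out. Under excitatory marker scaling, chosen after seeing the data, Nrn1 reversed to -0.14 between PHL + CMS and Veh + CMS. Apart from the scalings, the cause of these differences was not tested. The log2 fold changes of Nptx2 ranged from 0.41 to 0.79 between PHL + CMS and Veh + CMS and from -0.75 to -0.38 between Veh + CMS and Veh over the 23 alternatives. Nrn1 was called lower between Veh + CMS and Veh with library weights (limma adjusted p = 0.0423) and with voom (adjusted p = 0.0413). Libraries with the same replicate number did not deviate together (correlations of -0.10 to 0.05), so the replicate block pairs by number alone. With 3 libraries a group and 88 to 179 reads, small changes of Inhba were not detectable.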

Other observations

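The mean profile of the 9 members over the 9 libraries had its own nearest genes, which are given as a description. Efnb1, which encodes the ligand ephrin-B1, was nearest, at a root mean square difference of 0.07 on the log2 scale, where the member mean itself spread by 0.25. Its means were 8.51 FPKM in PHL + CMS, 6.16 FPKM in Veh + CMS and 8.86 FPKM in Veh. Noct, which encodes the clock-controlled phosphatase nocturnin, followed at 0.09 with 15.7, 12.1 and 15.8 FPKM in the same groups. Lrfn4, a synaptic adhesion protein, and Cavin3, a coat protein of caveolae, lay at 0.10, as did Cgref1, a secreted calcium-binding protein.

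Further marker lists were tested between Veh + CMS and Veh. Of 6 astrocyte markers 3 were above 0 and 3 below (median 0.03), and 1 was called higher (limma), beside 428 of the 16159 genes tested. That marker was Gfap, the intermediate filament of reactive astrocytes, at 197 ± 44.7 FPKM in Veh + CMS and 96.2 ± 18.2 FPKM in Veh (SD, n = 3 each). Its log2 difference was 1.02 (SE 0.19, limma adjusted p = 0.0308). Of 6 microglia markers 6 were above 0 (median 0.19) and 0 were called (limma, 2 at an unadjusted p under 0.05, Csf1r and Cx3cr1). Of the 16159 genes tested 3596 had such a p in either direction. Of 5 meninges and fibroblast markers tested, 5 were below 0 (median -0.62, 0 called and 0 at an unadjusted p under 0.05 by limma). Of the endothelial markers 2 were tested and 0 called (limma, 0 at an unadjusted p under 0.05), and Cldn5 was listed at 0 in all libraries.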
